A study of Mus musculus with 4 samples.

Results

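Imprinted growth genes were followed as a set in RNA-seq libraries of mouse neural progenitors. The set was named by symbol as *H19*, *Igf2*, *Dlk1*, *Meg3*, *Peg3*, *Mest*, *Cdkn1c*, *Grb10*, *Plagl1* and *Ndn*, and a member was taken where the gene column of the deposited values equalled its symbol. This held for 9 of the 10 names among 21091 entries. *Meg3* is present only in an entry that joins it with *Mir1906-1* and *Mir770*, so that entry is given beside the set and is counted in none of its totals. Expression was given as FPKM, a fragment count scaled for transcript length and for the mapped fragments of the library.

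The study compared progenitors from C57BL/6 embryos at embryonic day 11 (E11) and 14 (E14), in controls (CTL) and in conditional knockouts of *Stat3* (*Stat3* cKO). The cells were dissected from embryonic brain, grown as neurospheres in serum-free medium with EGF and FGF, and collected after 3 days. In the cKO, Cre driven by a rat Nestin promoter and enhancer removes floxed exons that encode the SH2 domain of STAT3, and the study describes the knockout as achieved in progenitors by E14. The labels call the control WT, whereas the animal methods describe control embryos that carry Nestin-Cre and 1 floxed *Stat3* allele, so whether the sequenced controls carried Cre is not settled here. Each genotype had 1 library at each stage, 4 in all. No difference below therefore has a replicate check, and no test was made. Where a sentence gives 4 values in a row, they run from CTL to *Stat3* cKO at E11 and then from CTL to *Stat3* cKO at E14.

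Genomic imprinting leaves a gene active from only the maternal or the paternal copy, through DNA methylation set in the egg or the sperm. Many imprinted genes act on growth of the embryo. Paternally expressed genes such as *Igf2* and *Mest* tend to promote it, and maternally expressed genes such as *Cdkn1c* and *Grb10* tend to restrain it. They lie in clusters, called domains, whose genes share a control region. FPKM sums both parental copies, so the values below say nothing about which copy was active.

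The libraries were checked first. *Stat3* had 7.41 (CTL) and 6.74 FPKM (*Stat3* cKO) at E11 and 27.6 and 9.55 FPKM at E14. The cKO removes part of the gene, so this value over the whole gene checks the labels only in part, and at E11 it hardly separates the genotypes. The Y-linked gene *Ddx3y* was listed at 0 in both E11 libraries and at E14 had 0.0569 FPKM in the CTL library against 25.1 in the other, so the sex of the embryos cannot be told apart from genotype at E14, nor from stage in *Stat3* cKO. All 7 neural progenitor markers (*Sox2*, *Nes*, *Pax6*, *Sox1*, *Hes5*, *Vim* and *Fabp7*) were present in every library, with summed levels of 1416, 1612, 7267 and 7913 FPKM. *Fabp7* alone had 516, 594, 5245 and 5929 FPKM, so it made up most of both E14 sums, and sums without it were not taken. From E11 to E14, 5 of the 7 were higher in each genotype. The other 2, *Pax6* and *Sox1*, were lower in both, with *Pax6* 3.03-fold lower in CTL and 2.56-fold lower in *Stat3* cKO. The 9 markers of mesenchyme and meninges summed to 1353 and 1295 FPKM in the E11 libraries and to 49.4 and 70.3 in the E14 libraries. Most of the E14 sums was *Pdgfra*, and without it the sums were 1299.7 and 1226 at E11 and 13.5 and 9.16 at E14, so the order of the E14 genotypes turned. The FPKM values carry no read counts, but their smallest steps among 1521 genes with a single annotated transcript of at least 2000 bases gave an estimate of 50900000, 36200000, 40600000 and 44300000 mapped fragments.

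Sequences around the start sites are shown for *Mest* and *Igf2*. *Mest* was the member at least 2-fold lower in *Stat3* cKO at E14, and *Igf2* was the member with the lowest ratio of all in any of the comparisons. *Igf2* has 4 windows, of which the one with the most GGGCGG matches is shown, and another *Mest* window that lies 3 bases from the second is left out. The windows run from 250 bases before to 50 bases after a start and were taken from RefSeq on GRCm38.p6, which held 15 windows for 8 of the 10 names. The capitals mark GGGCGG, a core motif of SP family factors, on either strand.
*Mest*, plus strand, chr6:30733256-30733555: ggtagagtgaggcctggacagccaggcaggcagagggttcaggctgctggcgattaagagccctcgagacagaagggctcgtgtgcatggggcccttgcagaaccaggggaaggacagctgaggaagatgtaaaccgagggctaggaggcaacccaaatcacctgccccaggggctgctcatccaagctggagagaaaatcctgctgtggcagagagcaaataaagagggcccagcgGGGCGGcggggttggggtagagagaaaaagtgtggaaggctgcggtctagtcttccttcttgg
*Mest*, plus strand, chr6:30737800-30738099: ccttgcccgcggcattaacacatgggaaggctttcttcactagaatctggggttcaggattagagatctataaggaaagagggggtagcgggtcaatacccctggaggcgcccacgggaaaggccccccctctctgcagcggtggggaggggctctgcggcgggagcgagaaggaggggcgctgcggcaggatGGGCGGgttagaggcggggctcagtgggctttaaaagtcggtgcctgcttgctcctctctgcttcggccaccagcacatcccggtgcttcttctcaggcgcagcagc
*Igf2*, minus strand, chr7:142657447-142657746: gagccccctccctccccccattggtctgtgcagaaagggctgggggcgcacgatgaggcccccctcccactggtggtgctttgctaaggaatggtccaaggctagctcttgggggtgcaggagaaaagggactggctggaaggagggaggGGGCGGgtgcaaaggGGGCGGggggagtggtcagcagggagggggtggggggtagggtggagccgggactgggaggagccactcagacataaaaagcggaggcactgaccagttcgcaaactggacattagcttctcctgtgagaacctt
The second *Mest* window holds 17 CpG dinucleotides and the first holds 8, beside a median of 7 over all 32851 windows. GGGCGG was found in 8 of the 15 windows and in 35.7% of all windows. The motif TTCNNNGAA, a palindrome that STAT dimers are known to bind, was found in 0 of the 15 and in 8.30% of all. The motif TATAAA was found in 1 of the 15, a *Meg3* window, and in 13.6% of all. These matches describe the letters in these windows only, and since FPKM is given per gene, the values do not show which start was used.

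The 2 mature miRNAs of *Mir335*, which lies in an intron of *Mest*, are shown because *Mir335* has an entry of its own. They lie on the plus strand at chr6:30741314-30741336 and chr6:30741354-30741375 and were taken from RefSeq on the same build. The capitals mark the seed, bases 2 to 8 from the 5′ end.
mmu-miR-335-5p: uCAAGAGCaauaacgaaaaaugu
mmu-miR-335-3p: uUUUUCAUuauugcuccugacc

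**Figure D1:**
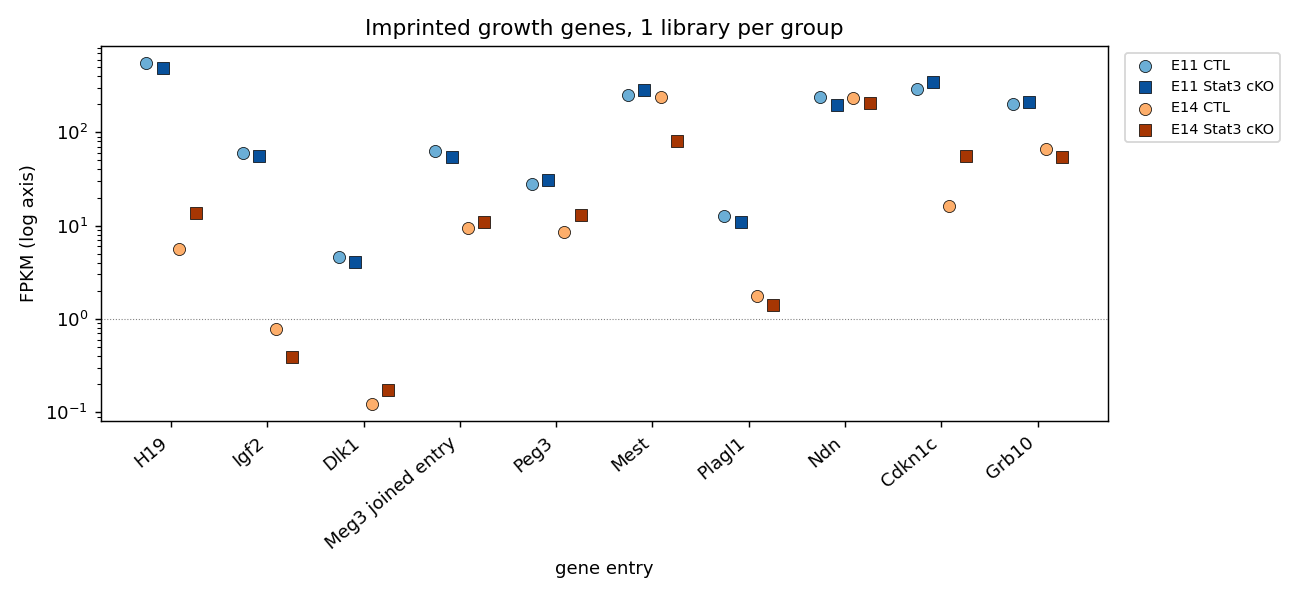
FPKM on a log axis for the 9 members and the joined *Meg3* entry, with 1 point for each library (circles CTL, squares *Stat3* cKO, blue E11, orange and brown E14) and a dotted line at 1 FPKM. The E11 points of each gene lie close together, whereas *H19*, *Igf2*, *Dlk1* and *Cdkn1c* are far lower at E14, and *Mest* is lower only in E14 *Stat3* cKO.

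From E11 to E14, most of the set was lower at the later stage in both genotypes. In CTL, 7 of the 9 members were at least 2-fold lower at E14, beside 12.5% of the 12430 genes with a ratio, and 0 were at least 2-fold higher, beside 14.6%. In *Stat3* cKO, 8 of the 9 were at least 2-fold lower, beside 11.7% of 12426 genes, and 0 were higher, beside 10.1%. At a threshold of 3-fold the count in *Stat3* cKO was 7, beside 6.92%, without *Peg3*. *Igf2* and *Dlk1* were below 1 FPKM at E14 and passed the minimum mean of 1 FPKM only through their E11 levels. On the log2 scale the members had a median ratio of -2.86 in CTL and of -2.64 in *Stat3* cKO, whereas the medians of all genes were 0.21 and 0.058. These are bulk libraries, in which fewer cells of a type and less RNA per cell cannot be told apart.

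*H19*, a maternally expressed long non-coding RNA, lies on chromosome 7 from 149761436 to 149764051 as listed. It had 552 (CTL) and 483 FPKM (*Stat3* cKO) at E11 and 5.67 and 13.8 FPKM at E14. It thus changed from one of the 200 highest entries in each E11 library (ranks 163 and 189) to ranks 8581 and 5622 at E14. The level was 97.3-fold lower at E14 in CTL and 34.96-fold lower in *Stat3* cKO.

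*Igf2*, the paternally expressed insulin-like growth factor that shares its enhancers with *H19*, is listed on chromosome 7 from 149836672 to 149856261. It had 60.0 (CTL) and 55.8 FPKM (*Stat3* cKO) at E11 and 0.783 and 0.396 FPKM at E14. Both E14 libraries were far below both E11 libraries, by 76.6-fold in CTL and 141-fold in *Stat3* cKO. With a pseudocount of 1 FPKM the log2 ratios moved from -6.26 to -5.10 and from -7.14 to -5.35. The log2 ratio in *Stat3* cKO, -7.14, was the 30th lowest of all genes in that comparison.

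*Dlk1*, a paternally expressed transmembrane protein related to the Notch ligands, is listed on chromosome 12 from 110691032 to 110701546 and had the lowest levels of the set. It had 4.66 (CTL) and 4.08 FPKM (*Stat3* cKO) at E11 and 0.123 and 0.174 FPKM at E14. It was 37.9-fold lower at E14 in CTL and 23.5-fold lower in *Stat3* cKO, with 95% counting intervals of the ratio (exact binomial) of 0.0102 to 0.0618 and 0.0198 to 0.0857. With a pseudocount of 1 FPKM the log2 ratios moved from -5.24 to -2.33 and from -4.55 to -2.11. With the annotated transcripts of at least 1000 bases, from 1129 to 4653 bases long, the E14 values correspond to an estimated 6 to 23 fragments in CTL and 9 to 36 in *Stat3* cKO. The levels at E14 are therefore near the limit of what these libraries can show.

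*Cdkn1c* encodes p57KIP2, a maternally expressed inhibitor of cyclin-dependent kinases, and is listed on chromosome 7 from 150644243 to 150646955. It had 289.8 (CTL) and 347 FPKM (*Stat3* cKO) at E11 and 16.0 and 55.6 FPKM at E14. Its level at E14 was 18.1-fold lower than at E11 in CTL and 6.24-fold lower in *Stat3* cKO.

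*Plagl1* encodes a paternally expressed zinc finger factor that is known to regulate other imprinted genes, and is listed on chromosome 10 from 12810593 to 12851501. It had 12.8 (CTL) and 10.8 FPKM (*Stat3* cKO) at E11 and 1.76 and 1.41 FPKM at E14. The change was near equal in the genotypes, at 7.27-fold lower in CTL and 7.67-fold lower in *Stat3* cKO.

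*Peg3* encodes a paternally expressed zinc finger protein and is listed on chromosome 7 from 6658670 to 6683130. It had 28.1 (CTL) and 30.4 FPKM (*Stat3* cKO) at E11 and 8.56 and 12.9 FPKM at E14. It was 3.28-fold lower at E14 in CTL and 2.36-fold lower in *Stat3* cKO. *Grb10*, an adaptor that damps signals from the insulin and IGF1 receptors, is listed on chromosome 11 from 11830501 to 11937423. It had 199 (CTL) and 210.4 FPKM (*Stat3* cKO) at E11 and 65.7 and 54.1 FPKM at E14, so that it was 3.02-fold lower at E14 in CTL and 3.89-fold lower in *Stat3* cKO. *Grb10* is expressed from the maternal copy in most tissues and from the paternal copy in neurons, and the values cannot separate them.

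*Mest* and *Ndn* were at high levels and did not share this course. *Mest*, a paternally expressed gene for a protein of the alpha/beta hydrolase fold, had 249.8 (CTL) and 284 FPKM (*Stat3* cKO) at E11 and 239.8 and 81.5 FPKM at E14. The stage ratio of *Mest* was 0.960 in CTL, whereas in *Stat3* cKO the gene was 3.48-fold lower at E14. *Ndn*, which encodes the neuronal growth suppressor necdin and is listed on chromosome 7 from 69493162 to 69494813, had 239 (CTL) and 197 FPKM (*Stat3* cKO) at E11 and 230.5 and 204 FPKM at E14. All 4 values of *Ndn* lie within a narrow range, and its stage ratio was 0.963 in CTL and 1.04 in *Stat3* cKO.

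At each stage the members differed widely in level. FPKM is per length, so levels can be set side by side between genes. At E11 CTL the order from the highest was *H19*, *Cdkn1c*, *Mest*, *Ndn*, *Grb10*, *Igf2*, *Peg3*, *Plagl1* and *Dlk1*. *Cdkn1c*, *Mest*, *Ndn* and *Grb10* lay between 199 and 289.8 FPKM there. At E14 CTL the order was *Mest*, *Ndn*, *Grb10*, *Cdkn1c*, *Peg3*, *H19*, *Plagl1*, *Igf2* and *Dlk1*, with *Mest* at 239.8 FPKM next to *Ndn* at 230.5. With 1 library in each group, the order of such neighbours has no replicate behind it.

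**Figure D2:**
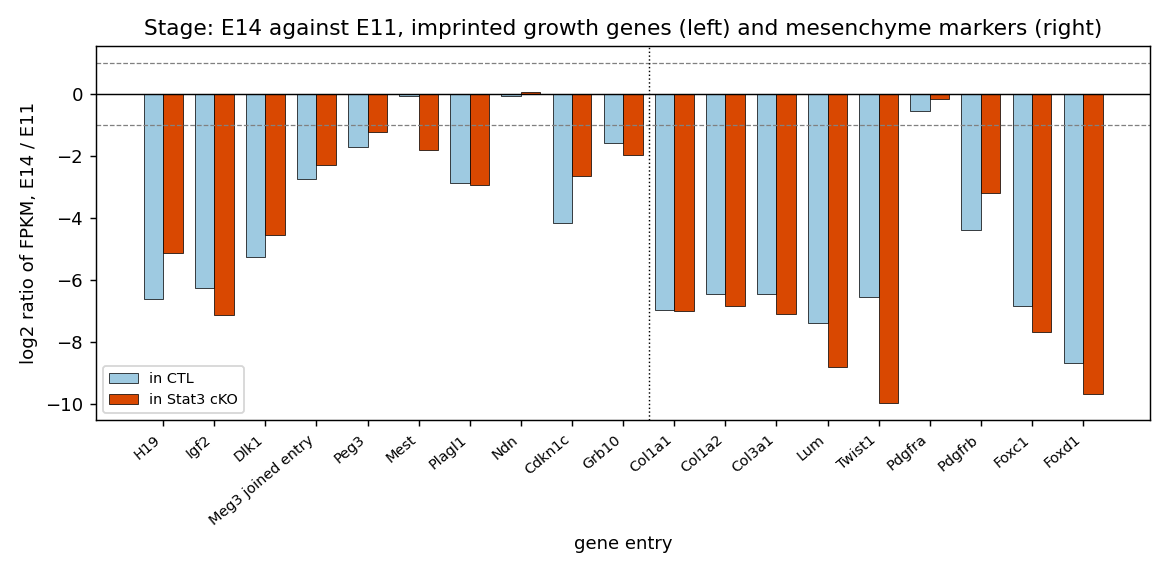
Log2 ratio of FPKM at E14 to E11 in CTL (light blue bars) and *Stat3* cKO (orange bars) for the 9 members and the joined *Meg3* entry, left of the dotted vertical line, and for the 9 markers of mesenchyme and meninges, right of it. Dashed lines mark 2-fold. *H19* and *Igf2* have the lowest bars of the members in CTL, at -6.60 and -6.26, *Ndn* lies close to 0, and *Pdgfra* is the only marker above -1 in both genotypes.

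Markers of mesenchyme and meninges, tissues that surround the embryonic brain and express *Igf2* and *H19* strongly, were lower alongside. Of the 9 markers, 8 were at least 2-fold lower at E14 in each genotype, beside 12.5% (CTL) and 11.7% (*Stat3* cKO) of all genes. *Col1a1*, *Lum*, *Twist1*, *Foxc1* and *Foxd1* were below 1 FPKM in both E14 libraries, as *Igf2* was, and passed the minimum mean only through their E11 levels. *Col3a1* had 674 (CTL) and 586 FPKM (*Stat3* cKO) at E11 and 7.64 and 4.29 FPKM at E14. *Pdgfra*, which oligodendrocyte progenitors also express, had 53.1, 68.7, 35.9 and 61.2 FPKM in the same order and was the exception. None of the 9 was listed at 0 in any library. Other marker lists also differed between stages. The sums were 4.43, 4.67, 1.04 and 1.61 FPKM for endothelium, and 3.53, 2.63, 0.327 and 0.455 for microglia and leukocytes. Red blood cell markers summed to 24.3, 3.42, 2.01 and 1.02 FPKM. Those of choroid plexus were higher at E14, at 4.71, 3.69, 121 and 84.2 FPKM, mostly through *Ttr*. The part of any of these cells in the levels of the imprinted genes was not tested.

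The genes whose pattern over the 4 libraries came nearest to *Igf2* included *Col3a1* and *Col1a2*, which are among those markers. Likeness was the root mean square difference of log2 FPKM, each gene centred on its own mean, across 9191 genes that had a mean of 5 FPKM or more and no value of 0. The 5 nearest to *Igf2* were *Col3a1* (0.075), *Tbx18* (0.17), *Cped1* (0.18), *Col1a2* (0.18) and *Abca9* (0.20). The 5 nearest to *H19* were *Frzb* (0.20), *Fmo1* (0.30), *Wdr86* (0.40), *Ahnak* (0.42) and *Cyp1b1* (0.44). *Tbx18*, *Cped1*, *Abca9* and all 5 genes nearest to *H19* were below 1 FPKM in both E14 libraries, as *Igf2* was. These genes, and *Col1a2* with 2.59 (CTL) and 1.87 FPKM (*Stat3* cKO) at E14, reached the mean of 5 FPKM only through their E11 levels. *H19* was only the 65th nearest to *Igf2*, at 0.91. The pair share the direction from E11 to E14 and differ in direction between genotypes at E14. Only 4 libraries enter this measure, and the stage difference weighs most in it.

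**Figure D3:**
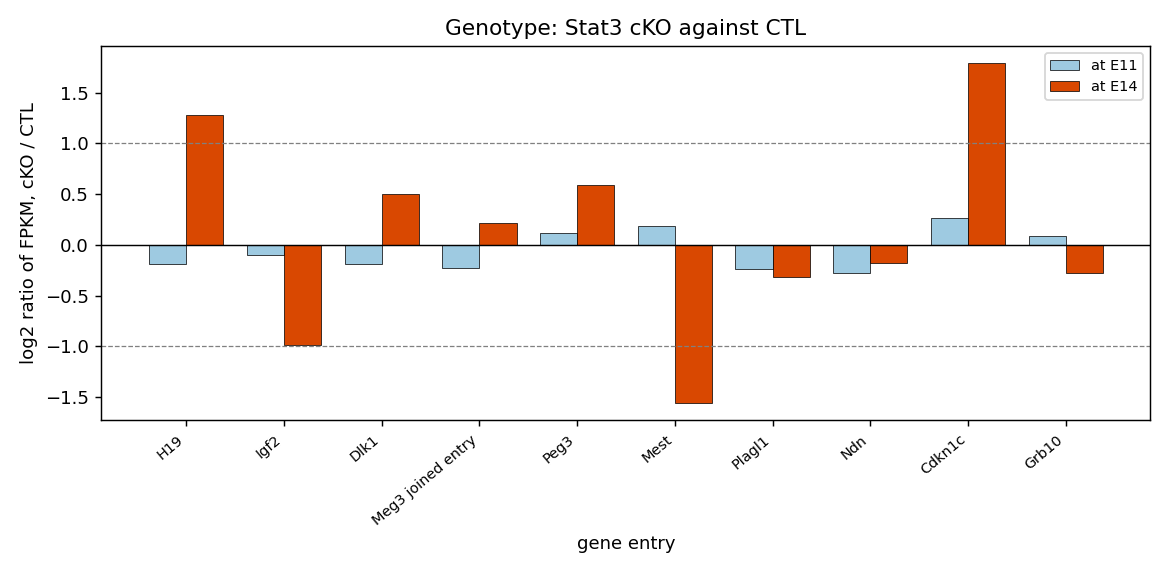
Log2 ratio of FPKM in *Stat3* cKO to CTL at E11 (light blue bars) and E14 (orange bars) for the 9 members and the joined *Meg3* entry, with dashed lines at 2-fold. All E11 bars lie between -0.28 and 0.26, whereas at E14 *Cdkn1c* and *H19* pass 2-fold upwards, *Mest* passes it downwards and *Igf2* stops just short of it.

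Between genotypes, members passed 2-fold at E14 in both directions and none did at E11. At E11, no member (0 of 9) reached a 2-fold higher level in *Stat3* cKO than in CTL, beside 0.209% of all genes, and 0 were at least 2-fold lower, beside 1.12%. For 9 genes these counts are at the background and say nothing particular to the members. The log2 ratios at E11 ran from -0.28 for *Ndn* to 0.26 for *Cdkn1c*, with a median of -0.10. At E14, *Cdkn1c* and *H19* were at least 2-fold higher (2 of 9, beside 1.85% of all genes) and *Mest* was at least 2-fold lower (1 of 9, beside 1.69%). The median log2 ratio of the members at E14 was -0.18 and that of all genes was -0.079, so the set had no common direction. Thresholds of 1.5-fold and 3-fold were also read at E14. At 1.5-fold, 3 members were higher, beside 5.82% of all genes, and 2 were lower, beside 7.67%, with *Peg3* and *Igf2* added. At 3-fold, only *Cdkn1c* was higher, beside 0.475%, and 0 were lower, beside 0.418%.

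*Cdkn1c* was 3.47-fold higher in E14 *Stat3* cKO than in E14 CTL, the 36th highest ratio of all genes. At E11 it was 1.20-fold higher. *H19* was 2.44-fold higher at E14 with the 111th highest ratio, whereas at E11 its ratio was 0.875. Both genes were still far lower in E14 *Stat3* cKO than in either E11 library.

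*Mest* was 2.94-fold lower in E14 *Stat3* cKO than in E14 CTL, the 56th lowest ratio of all genes, and 1.14-fold higher at E11. The E14 *Stat3* cKO library was the one low value, and the other 3 libraries lay between 239.8 and 284 FPKM. *Mest* is listed on chromosome 6 from 30683505 to 30846760, an interval that the files also give for *Copg2* and *Mir335*. *Copg2*, which lies tail to tail with *Mest* on the other strand, had 47.7 (CTL) and 49.7 FPKM (*Stat3* cKO) at E11 and 43.8 and 45.4 FPKM at E14 and so did not follow *Mest*. Whether strand was used in the alignment is not stated, so fragments in the overlap cannot be told apart. *Mir335* had 231 FPKM in E11 CTL and 276 in E11 *Stat3* cKO and was listed at 0 in both E14 libraries, where its host *Mest* was present. An entry of this length can be at 0 because no value could be estimated, and no ratio was taken.

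*Igf2* was 1.98-fold lower in E14 *Stat3* cKO than in E14 CTL. At the shortest annotated transcript of at least 1000 bases this rests on an estimated 44 fragments in *Stat3* cKO and 80 in CTL, and the 95% counting interval of the ratio (exact binomial) was 0.341 to 0.738. With a pseudocount of 1 FPKM its log2 ratio moved from -0.98 to -0.35. *Dlk1* had a ratio of 1.41, with an estimated 9 and 6 fragments and an interval of 0.437 to 4.70, so no difference was detectable at this depth. For *Plagl1* the ratio was 0.802 with an interval of 0.577 to 1.10. These intervals cover counting error only and not the difference between cultures.

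*Peg3* was 1.51-fold higher in E14 *Stat3* cKO. *Grb10*, at a ratio of 0.823, and *Ndn*, at 0.886, were closer to level. By parent of origin, *H19* and *Cdkn1c*, the genes that were at least 2-fold higher, belong to the 3 maternally expressed members in the files, and *Mest*, at least 2-fold lower, to the 6 paternally expressed ones. Among 26 other imprinted genes whose mean reached 1 FPKM, 0 of 10 maternally expressed genes were past 2-fold at E14 in either direction, and of 16 paternally expressed genes 2 were at least 2-fold lower and 0 higher, beside the same 1.85% higher and 1.69% lower of all genes. With lists this short, a count of 0 is near that background. These counts describe the named genes only, and allele-specific expression was not measured.

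The 2 other paternally expressed genes at least 2-fold lower in *Stat3* cKO at E14 both have known roles in the placenta. *Slc38a4*, an amino acid transporter, had 24.9 (CTL) and 27.1 FPKM (*Stat3* cKO) at E11 and 2.10 and 0.677 FPKM at E14. *Peg10*, a gene derived from a retrotransposon, had 15.2, 18.5, 6.73 and 2.97 FPKM in the same order. Each was lowest in E14 *Stat3* cKO.

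Cell type markers were also read between the genotypes at E14. Of the 9 markers of mesenchyme and meninges, *Lum* (0.977 FPKM in CTL, 0.388 in *Stat3* cKO) and *Twist1* (0.450 and 0.0353) were at least 2-fold lower and *Pdgfrb* (0.625 and 1.58) was at least 2-fold higher, beside 1.69% of all genes lower and 1.85% higher. *Col1a1*, *Lum*, *Twist1*, *Foxc1* and *Foxd1* lay at 0.0353 to 0.977 FPKM in these libraries and were kept only through their E11 levels, so their ratios rest on low values. *Col1a1* was close to level, at a ratio of 1.06. The neural progenitor marker *Hes5* had 124 and 294 FPKM, and 6 of the 7 progenitor markers had more FPKM in *Stat3* cKO than in CTL (median 0.38 on the log2 scale). All 5 neuron markers had less, at a median of -0.38 beside -0.079 for all genes, and none of them reached 2-fold. The choroid plexus marker *Ttr* had 118 and 82.2 FPKM, and the 5 endothelial markers summed to 1.04 and 1.61 FPKM. The 5 markers of microglia and leukocytes summed to 0.327 and 0.455 FPKM, and *Hbb-y*, the red blood cell marker above the minimum, had 1.87 and 0.852. At E11, the markers past 2-fold between genotypes were *Hbb-y*, at 22.4 and 3.07 FPKM, and the neuron marker *Neurod6*, at 8.14 and 3.76. The part of any of these cells in the genotype ratios was not tested.

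**Figure D4:**
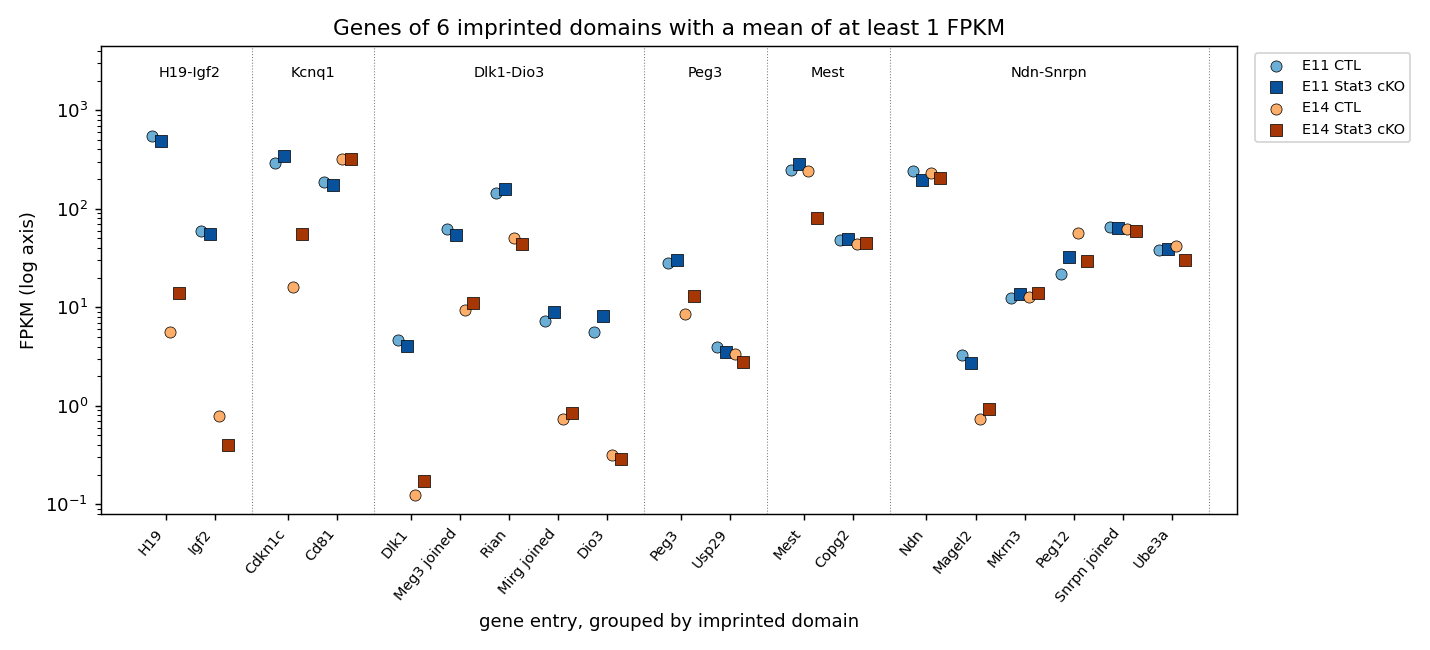
FPKM on a log axis for genes of 6 imprinted domains whose mean reached 1 FPKM, with 1 point for each library (circles CTL, squares *Stat3* cKO, blue E11, orange and brown E14). The 5 plotted entries of the *Dlk1*-*Dio3* domain are lower at E14, 3 of them below 1 FPKM there, whereas *Cd81*, *Copg2*, *Usp29* and most genes of the *Ndn*-*Snrpn* domain are not set apart by stage in that way.

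Neighbours of the members in their domains are given for context. In the *Dlk1*-*Dio3* domain on chromosome 12, the joined *Meg3* entry, a maternally expressed long non-coding RNA, had 63.0 (CTL) and 53.8 FPKM (*Stat3* cKO) at E11 and 9.45 and 11.0 FPKM at E14. It was 6.67-fold lower at E14 in CTL and 4.89-fold lower in *Stat3* cKO, and its ratio between genotypes at E14 was 1.16. *Rian*, the next non-coding RNA, had 144, 157, 50.3 and 43.8 FPKM in the same order, and the entry that joins *Mirg* with its miRNAs had 7.31, 8.998, 0.735 and 0.843. *Dio3*, the deiodinase that inactivates thyroid hormone, had 5.58, 8.15, 0.317 and 0.291 FPKM. *Dlk1*, *Dio3* and the *Mirg* entry were below 1 FPKM at E14 and passed the minimum mean only through their E11 levels, whereas the *Meg3* entry and *Rian* were above 1 FPKM in every library and were more than 2-fold lower at E14 in both genotypes.

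The *H19* and *Igf2* entries, described above, were also both lower at E14, whereas the *Kcnq1*, *Peg3*, *Mest* and *Ndn*-*Snrpn* domains each held genes that were not 2-fold lower. In the *Kcnq1* domain, *Cd81* had 188, 173, 317 and 323 FPKM and did not follow *Cdkn1c*. The other genes read there had a mean below 1 FPKM and were not plotted or counted. Among them *Kcnq1ot1* was 6.39-fold lower at E14 in CTL and 4.73-fold lower in *Stat3* cKO. *Slc22a18* and *Kcnq1* were more than 2-fold lower in both genotypes, *Phlda2* only in CTL and *Ascl2* in neither, all from levels below 1 FPKM. In the *Mest* domain, *Klf14*, also below that mean, was 8.4-fold lower in CTL and 15.8-fold lower in *Stat3* cKO. *Usp29*, which shares a promoter region with *Peg3*, had 3.92, 3.48, 3.38 and 2.82 FPKM. Near *Ndn*, *Mkrn3* had 12.4, 13.5, 12.8 and 14.1 FPKM and the joined *Snrpn* and *Snurf* entry had 65.1, 64.2, 62.3 and 59.5, whereas *Magel2* had 3.27, 2.70, 0.735 and 0.938. *Peg12* had 21.7, 32.5, 56.7 and 29.4 FPKM, the highest in E14 CTL. The 26 other imprinted genes had median log2 ratios between stages of -0.20 (CTL) and -0.29 (*Stat3* cKO), far from the -2.86 and -2.64 of the members, and 8 and 10 of the 26 were at least 2-fold lower, beside 12.5% and 11.7% of all genes. Among these, *Magel2* and *Dio3* were below 1 FPKM in both E14 libraries and passed the minimum mean only through their E11 levels. At least 2-fold higher were 2 and 1 of the 26, beside 14.6% and 10.1%.

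The signalling partners of the members were read from wider lists. Of 22 genes of the IGF and insulin pathway, 9 were at least 2-fold lower at E14 in each genotype, beside 12.5% (CTL) and 11.7% (*Stat3* cKO) of all genes. The 3 that were at least 2-fold higher in each genotype are near the background of 14.6% and 10.1%. *Igf1* was, like *Igf2*, lower at E14 in both genotypes, with 18.01 (CTL) and 9.93 FPKM (*Stat3* cKO) at E11 and 0.405 and 0.472 FPKM at E14. Between genotypes its ratios, 0.551 at E11 and 1.17 at E14, differed from the 0.931 and 0.505 of *Igf2*. *Igf1* is one of the 9 and passed the minimum mean only through its E11 levels. The receptor that signals for both ligands, *Igf1r*, had 9.97, 9.87, 4.57 and 4.23 FPKM, and *Igf2r*, a receptor that clears IGF2 and is maternally expressed in most tissues, had 28.9, 27.9, 12.2 and 12.6. Its antisense partner *Airn* overlaps it, and without strand their fragments cannot be told apart. Between genotypes, *Igfbp3*, which encodes a binding protein of the IGFs, was the 1 gene of the 22 past 2-fold, lower at both stages, beside 1.12% of all genes at E11 and 1.69% at E14, so the count is near the background. It had 9.43, 2.74, 82.1 and 21.8 FPKM.

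For *Cdkn1c*, the other inhibitors of its family and their cyclin partners were set beside it. *Cdkn1a* had 9.70 (CTL) and 6.53 FPKM (*Stat3* cKO) at E11 and 5.32 and 2.68 FPKM at E14, and *Cdkn1b* had 64.2, 64.3, 89.1 and 103. Neither was past 2-fold between genotypes at E14, *Cdkn1a* falling just short downwards, where *Cdkn1c* was 3.47-fold higher. Of 13 genes in this list, 3 were at least 2-fold lower in E14 *Stat3* cKO, beside 1.69% of all genes, and 0 were higher, beside 1.85%. The 3 were the G1 cyclins *Ccnd1* (210.1 FPKM in CTL against 34.2), *Ccne1* (19.6 and 8.99) and *Ccne2* (18.6 and 6.32).

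Genes that set or keep imprints through DNA methylation were read as well. Of 12 such genes whose mean reached 1 FPKM, 0 were past 2-fold between genotypes at either stage, which is near the shares of all genes (0.209% higher and 1.12% lower at E11, 1.85% and 1.69% at E14) and says nothing particular to this list. *Uhrf1*, a partner of the maintenance DNA methyltransferase, had 33.4, 59.3, 89.5 and 46.6 FPKM. *Zfp57*, a zinc finger protein that binds methylated imprint control regions, had 16.9, 15.2, 12.5 and 12.9 FPKM. *Dnmt1*, the maintenance DNA methyltransferase, had 39.4, 46.7, 61.0 and 41.2 FPKM. DNA methylation itself was not measured in these libraries. In its discussion the study reports, from bisulfite sequencing, a lower global methylation level in *Stat3* cKO progenitors at E14, which was not checked here.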

How the data were processed

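RNA was extracted with Trizol from cultured neural progenitors of 4 groups with 1 library each, and was sequenced on an Illumina HiSeq 2000. The authors checked reads with FastQC, ran TopHat and Cufflinks, and deposited FPKM values for 21091 entries (140 join several symbols). The submitters' processing notes name Bowtie 0.12.2 and the builds mm8 and mm9, with no role for each. Listed positions on chromosome 7 reach 152509964, beyond the last GRCm38 gene end of 145324086, so they were printed as listed and never joined with GRCm38 coordinates. The annotation is not given in the sources used here.

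No value was rescaled. Plain ratios without a pseudocount were taken for the 12449 genes whose mean over the libraries reached 1 FPKM. A gene at 0 in either library got no ratio, and a ratio of 2 in either direction was called. With 1 library in each group there was no test. The members and all lists were chosen with earlier results of these data known. Named are all members, *Stat3*, listed genes past 2-fold between genotypes (at most 4 a list) and the 5 nearest patterns. *Ddx3y*, the domain neighbours, the joined entries and further single genes of the lists were named after their values were seen. Fragment estimates used transcript lengths from GENCODE M21. Python 3.11.15, numpy 2.4.6, pandas 2.3.3, scipy 1.17.1 and matplotlib 3.10.9 were used. Alternatives were median centring, upper-quartile scaling, pseudocounts of 0.1 and 1, a minimum mean of 5 FPKM or none, and thresholds of 1.5 and 3. The marker sum without *Pdgfra* was added after the data were seen.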

Additional observations from a re-analysis of the deposited data

Results flagged for a closer look

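Genes of the lists were marked where their ratios had opposite directions, each by at least 1.5-fold, in the 2 stages or in the 2 genotypes. No member of the set met this. With 1 library in each group, the differences between stages and between genotypes were not tested.

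Between genotypes, 3 genes were higher in *Stat3* cKO at E11 and lower at E14. On the log2 scale, *Uhrf1* had 0.83 at E11 and -0.94 at E14. *Uhrf1* encodes a partner of the maintenance DNA methyltransferase. The values were 0.76 and -1.56 for *Ccne2*, and 0.64 and -1.12 for *Ccne1*. Between stages, *Ccne1* was higher at E14 in CTL (log2 ratio 1.05) and lower in *Stat3* cKO (-0.72), and *Ccnd1* had 1.05 and -1.81. The comparisons share libraries, and a high value in E14 CTL enters both the genotype ratio at E14 and the stage ratio in CTL.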

How the results depend on the processing

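No paired analysis was possible because each group had 1 library. The 106 values of called members over the 6 alternatives that recompute ratios stayed past 2-fold in the same direction, none of the other 106 became called, and no called value changed sign. Of the values near 0, *Grb10* and *Peg3* between genotypes at E11 changed sign with upper-quartile scaling, and *Ndn* between stages in *Stat3* cKO did so with both scalings. Dropping genes with a mean under 5 FPKM removes *Dlk1*. A threshold of 1.5 gave 2 members lower in *Stat3* cKO at E14 in place of 1, and 3 higher in place of 2. A threshold of 3 gave 1 member higher in place of 2 and 0 lower in place of 1, and between stages in *Stat3* cKO 7 lower in place of 8. For the members, the median log2 ratio between stages in CTL was -3.08 with all genes centred on their median, -3.20 with upper-quartile scaling, -2.32 with a pseudocount of 1 and -2.29 with a minimum mean of 5 FPKM. In *Stat3* cKO it was -2.11 with a pseudocount of 1 and -2.30 with a minimum mean of 5 FPKM. With upper-quartile scaling, the median of *Stat3* cKO to CTL was -0.23 at E11 and -0.023 at E14, and that scaling took the median of all genes from 0.21 to -0.12 for E14 to E11 in CTL. Changes that add a constant or drop genes follow from the alternative itself. Medians that moved by less than 0.1 are not listed. Single libraries and an inferred depth limit every value, most of all *Dlk1* and *Igf2* at E14.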
